A study of Mus musculus with 10 samples.

Results

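The genes described here encode the mucus and secreted proteins of intestinal goblet cells. They are Muc2, Fcgbp, Tff3, Zg16, Spink4, Retnlb, Agr2 and Spdef, chosen by name as known goblet cell genes, and their rows are 8 of the 35006 gene rows in each count file. RNA was sequenced after poly-A selection from live EpCAM+ small-intestinal crypt cells of C57BL6/J mice carrying EF1a-OSCAR, a reporter whose ratio of green to red fluorescence is high where the kinase CDK9, which phosphorylates RNA polymerase II, is less active. The reporter was knocked into Rosa26 and is driven by the EF1a promoter, with its stop cassette removed in the germline by Vasa-Cre. Age and sex of the mice were not given in the sources used here. From each population 10000 cells were sorted, with 2 libraries per population and 10 in all.

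The populations differ in their gate. By label, P1 is OSCARlow EF1alow, P2 is OSCARhigh EF1alow, P3 is OSCARlow EF1ahigh, P4 is OSCARmed EF1alow and P5 is OSCARmed EF1ahigh. The labels and the study give the same gates, but the study places the secretory cells in the P3 gate and not in P2, while here the files titled P2 hold their markers. The file names also number the populations differently from the titles. Whether the titles of P2 and P3 were exchanged cannot be told from these files, so the gate to which the high values belong is uncertain. No library was renamed, and all statements below concern the libraries labelled P2 and the libraries labelled P3. The study calls the 2 libraries of a population biological replicates, but nothing says that they came from separate animals, so p-values measure only the spread between these libraries. The libraries held 3857612 to 6485823 counts on genes, and 3 counts, taken as the detection floor, are between 4.63e-05% and 7.78e-05% of a library, for counting error only.

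Goblet cells are secretory cells of the intestinal epithelium that fill granules with gel-forming mucin and release it to build the mucus layer. Mucin is folded and linked in the endoplasmic reticulum, decorated with O-linked sugars in the Golgi and stored with smaller secreted proteins. The lineage is specified by Atoh1, downstream of Notch signalling, and matured by transcription factors such as Spdef.

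Because 7 of the 8 genes were highest in the same libraries, the promoters of those with an entry in the RefSeq promoter table of GRCm38.p6 are shown, 250 bases before to 50 after the start site. Entries were found for Muc2, Fcgbp, Agr2 and Spdef. Capitals mark matches on either strand to 6 short motifs, the first being CAGCTG, an E-box of the kind bound by Atoh1. The others searched were CCGGAT, a core of sites bound by Spdef, then the wider core CCGGAA bound by other ETS factors, the forkhead core TGTTTNC, the core TGACGTG bound by factors related to CREB, and the TATA box TATAAA.
Muc2: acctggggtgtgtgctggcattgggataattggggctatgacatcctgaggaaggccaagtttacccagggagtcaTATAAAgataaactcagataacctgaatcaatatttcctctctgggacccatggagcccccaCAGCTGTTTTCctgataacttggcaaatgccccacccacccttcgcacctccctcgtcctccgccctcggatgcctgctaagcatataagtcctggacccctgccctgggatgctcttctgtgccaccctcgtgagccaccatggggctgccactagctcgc
Fcgbp: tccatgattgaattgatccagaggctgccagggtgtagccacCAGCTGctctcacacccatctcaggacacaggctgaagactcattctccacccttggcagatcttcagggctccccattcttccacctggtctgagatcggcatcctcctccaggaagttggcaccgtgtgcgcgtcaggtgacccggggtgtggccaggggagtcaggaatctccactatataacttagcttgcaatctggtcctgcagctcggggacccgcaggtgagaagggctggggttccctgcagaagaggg
Agr2: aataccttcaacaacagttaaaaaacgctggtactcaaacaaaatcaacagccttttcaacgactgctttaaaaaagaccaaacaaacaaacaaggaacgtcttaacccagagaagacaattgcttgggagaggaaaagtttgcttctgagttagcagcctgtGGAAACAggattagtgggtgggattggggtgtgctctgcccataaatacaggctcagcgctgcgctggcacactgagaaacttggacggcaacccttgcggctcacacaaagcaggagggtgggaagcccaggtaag
Spdef: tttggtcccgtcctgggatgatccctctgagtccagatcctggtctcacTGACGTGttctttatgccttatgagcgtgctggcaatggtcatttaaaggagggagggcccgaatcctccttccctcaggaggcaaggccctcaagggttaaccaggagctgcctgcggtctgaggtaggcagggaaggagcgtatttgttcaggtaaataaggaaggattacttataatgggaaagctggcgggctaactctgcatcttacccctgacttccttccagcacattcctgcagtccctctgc
The Muc2 promoter lies on the plus strand at chr7:141690090-141690389, that of Fcgbp on the plus strand at chr7:28070986-28071285, that of Agr2 on the plus strand at chr12:35992675-35992974 and that of Spdef on the minus strand at chr17:27728902-27729201. CAGCTG occurs in the promoters of Muc2 and Fcgbp and in 16.3% of all 32851 promoters of this length in the table. TGTTTNC occurs in Muc2, where it overlaps the E-box, and in Agr2, and in 20.5% of all promoters. TATAAA occurs in Muc2, at -174 from the start site (13.6% of all promoters), and TGACGTG in Spdef (2.01%). CCGGAA, in 14.9% of all promoters, and CCGGAT, in 6.04%, are in none of these 4 windows. A match is a run of letters and not evidence of binding.

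Muc2, the gel-forming mucin of the intestine, had normalized counts (counts divided by DESeq2 size factors) of 45287 and 75041 in the 2 libraries labelled P2. In P4 it had 6445 and 4890, in P5 5163 and 4479, in P1 1419 and 2444, and in the libraries labelled P3 816 and 2172. Both libraries labelled P2 stood above the other 8, P4 and P5 overlapped, and so did P1 and P3. Fcgbp, a large mucus protein covalently linked to Muc2, followed the same order, with 119147 and 300536 in the libraries labelled P2, 28350 and 23751 (P4), 23655 and 19439 (P5), 7123 and 10072 (P1), and 4138 and 8623 (P3). Both libraries labelled P2 were again above the other 8, P4 and P5 were separate, and P1 overlapped P3. Of the 7 genes tested, Fcgbp had the widest gap between the 2 libraries labelled P2. In bulk RNA, more goblet cells, more RNA per goblet cell and RNA of these genes from other cells cannot be told apart. Fcgbp shares 727 exon bases with Gm10935 on the opposite strand, and the counting did not use strand, so its counts are uncertain there. In the NCBIM37 annotation Muc2 spans 148876268 to 148940595 and Fcgbp 28856255 to 28905881, both on chromosome 7.

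**Figure D1:**
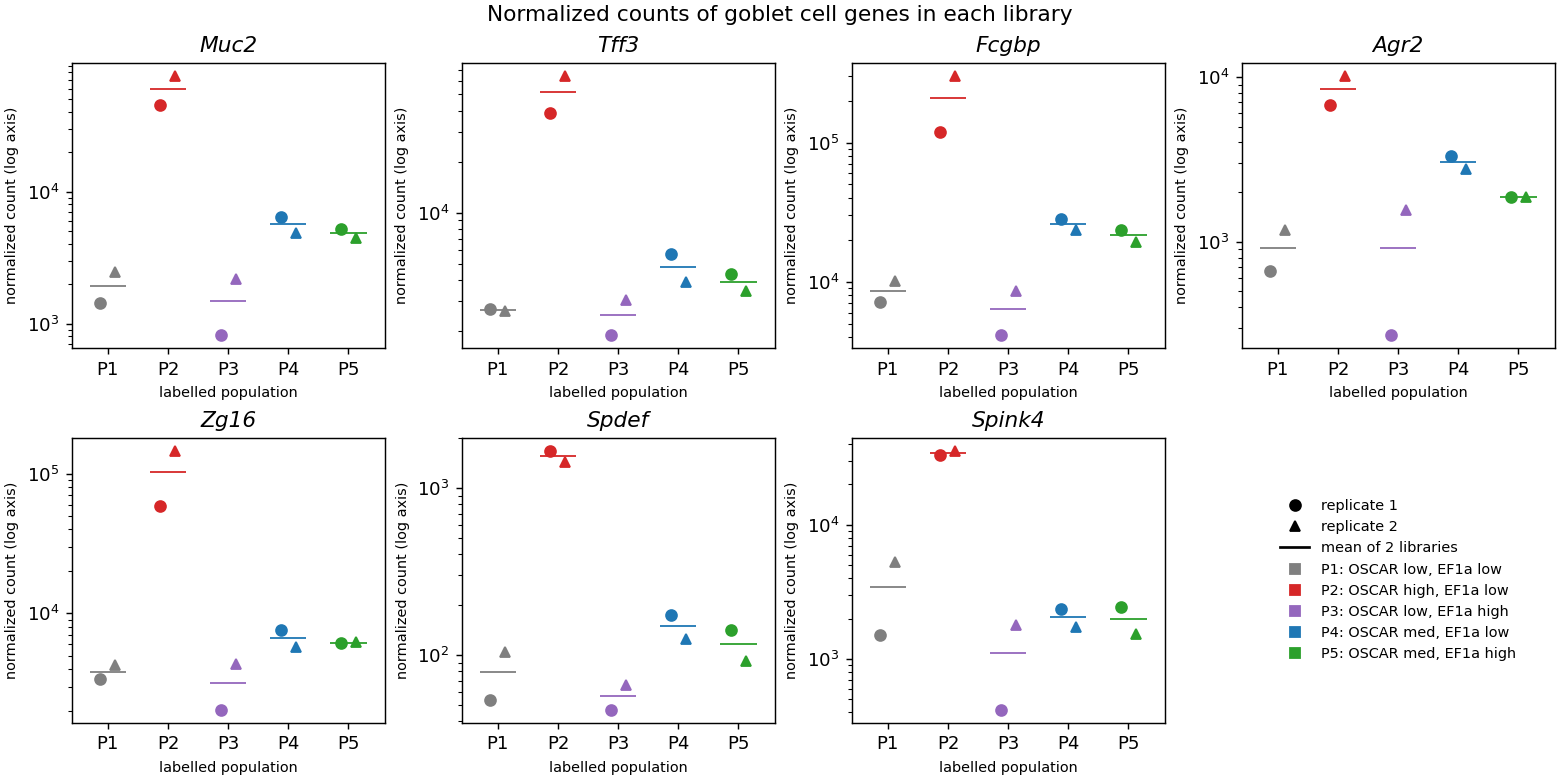
Normalized count on a log axis against labelled population for 7 goblet cell genes, with 1 point per library and a line at the mean of 2 libraries. In each panel both libraries labelled P2 lie above the other 8 on this scale, with the narrowest gap for Agr2 (6767 against at most 3293) and the widest for Spdef (1431 against at most 174).

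Tff3, a trefoil peptide secreted with mucin, had 38550 and 64070 normalized counts in the libraries labelled P2, 5705 and 3909 (P4), 4332 and 3462 (P5), 2697 and 2644 (P1), and 1894 and 3058 (P3). Zg16, a lectin-like granule protein that binds bacteria, had 59080 and 145825 in P2, 7617 and 5716 (P4), 6165 and 6203 (P5), 3395 and 4270 (P1), and 2048 and 4360 (P3). Both genes kept the order P2, P4, P5, P1, P3 in their means, and the ranges of P1 and P3 overlapped. Spink4, a Kazal-type peptide of goblet granules, differed in its order. Its normalized counts were 33415 and 35727 (P2), 1518 and 5318 (P1), 2367 and 1723 (P4), 2432 and 1533 (P5), and 419 and 1790 (P3). The mean in P1 was second, with its replicate 2 far above its replicate 1, and below P2 no neighbouring populations were separated. Retnlb, a secreted resistin-like protein, was close to the floor, with 9 counts in P2 replicate 2, 6 in P3 replicate 2, 2 in P4 replicate 2, 1 in P5 replicate 1 and 0 in the other 6 libraries. It did not pass the filter on low counts, was not tested, and no order of populations is given for it.

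Agr2, a disulfide isomerase of the endoplasmic reticulum needed for mucin folding, had the smallest gap between P2 and the next population. It stood at 6767 and 10131 normalized counts in the libraries labelled P2, 3293 and 2779 (P4), 1869 and 1854 (P5), 667 and 1174 (P1), and 270 and 1549 (P3). P2, P4 and P5 did not overlap, while P1 and P3 did. Spdef, the ETS transcription factor of goblet and Paneth cell maturation, had 1678 and 1431 in P2, 174 and 125 (P4), 140 and 92.5 (P5), 53.8 and 104 (P1), and 46.9 and 66.2 (P3). Its 2 libraries labelled P2 were close to each other, and the other 4 populations overlapped their neighbours. Agr2 lies on chromosome 12 from 36719494 to 36730674 and Spdef on chromosome 17 from 27851297 to 27865896 of NCBIM37.

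Against P1, which by label shares the EF1alow gate, all 7 tested genes were higher in the libraries labelled P2 (adjusted p under 0.01, edgeR's quasi-likelihood method after Benjamini-Hochberg adjustment), against 13.9% of the 13708 genes tested that were higher. Their median log2 fold change was 4.28, against 0.01 over all genes. The fold was 30.9 for Muc2 (log2 4.95, standard error 0.61, adjusted p = 0.000476 from edgeR). For Agr2 it was 9.09 (log2 3.18, standard error 0.68, adjusted p = 0.00485 from edgeR). Agr2 lost its call in 4 of 21 alternatives, Spink4 in 6 and Fcgbp in 3. With single libraries left out the log2 fold change lay between 2.81 and 3.64 for Agr2 and between 2.67 and 4.48 for Spink4. Without P1 replicate 1 the number called was 4, these being Muc2, Tff3, Zg16 and Spdef, while the genes higher among all fell from 1903 to 852. Against the libraries labelled P3, where by label both gates differ, 7 of 7 were higher, against 10.5% of all genes, with a median log2 fold change of 4.89. Muc2 was 38.4-fold higher (log2 5.26, standard error 0.62, adjusted p = 0.000412 from edgeR), and its log2 fold change was 4.74 without P3 replicate 1 and 6.05 without P3 replicate 2. Agr2, 8.86-fold higher (adjusted p = 0.00644 from edgeR), was not called without P2 replicate 1 or without P2 replicate 2, nor without any single P4 or P5 library. Its log2 fold change of 3.15 became 2.39 without P3 replicate 1 and 4.81 without P3 replicate 2. The genes higher among all fell from 1434 to 741 without P2 replicate 1 and to 710 without P2 replicate 2.

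Against P4, the OSCARmed gate at EF1alow, 6 of 7 genes were higher in the libraries labelled P2, against 8.02% of all genes, with a median log2 fold change of 3.39, against 0.05 over all genes. Spink4 was 16.6-fold higher (log2 4.05, standard error 0.78, adjusted p = 0.00523 from edgeR), Zg16 15.3-fold (log2 3.93, standard error 0.62, between 3.04 and 4.44 with a library left out) and Spdef 10.2-fold (log2 3.35, standard error 0.34, adjusted p = 0.000501 from edgeR). The gene not called was Agr2, with a log2 fold change of 1.46 (standard error 0.63, adjusted p = 0.118 from edgeR). Its libraries labelled P2 lay above both of P4 in normalized counts, but in counts divided by the library total P2 replicate 1 was below P4 replicate 1 (783 against 877 CPM). Fcgbp passed narrowly (ratio of mean levels 8.06, standard error 0.66 in log2, adjusted p = 0.00951 from edgeR) and was not called in 10 of 21 alternatives. Its log2 fold change was 2.08 without P2 replicate 2 and 3.51 without P2 replicate 1. Without P4 replicate 1, and likewise without P4 replicate 2, Spdef was the 1 gene called, and without P2 replicate 2 the number was 3. In the same 3 fits the genes higher among all fell from 1099 to 175, 138 and 333. The fold also depends on the scaling: the ratio of mean Muc2 level in P2 to that in P4 was 10.6 in normalized counts and 4.79 in counts divided by the library total, and for Agr2 it was 2.78 and 1.25.

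Against P5, 6 of 7 genes were higher in the libraries labelled P2, against 8.75% of all genes, with a median log2 fold change of 3.69. Agr2 was again the gene not called, at log2 2.15 (standard error 0.65, adjusted p = 0.0330 from edgeR). It was called in 6 of 21 alternatives, among them DESeq2 (adjusted p = 0.00167) and the model without P3 replicate 1, and its highest adjusted p was 0.149. Fcgbp lost its call in 9 of 21, with a highest adjusted p of 0.0647. Without P5 replicate 2 the number called was 1, and without P5 replicate 1 it was 2, while the genes higher among all fell from 1199 to 218 and 326. In counts divided by the library total the ratio of mean levels in P2 and P5 was 6.03 for Muc2 and 2.18 for Agr2, against 12.5 and 4.54 in normalized counts. These 4 comparisons share the libraries labelled P2 and are not independent of each other.

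**Figure D2:**
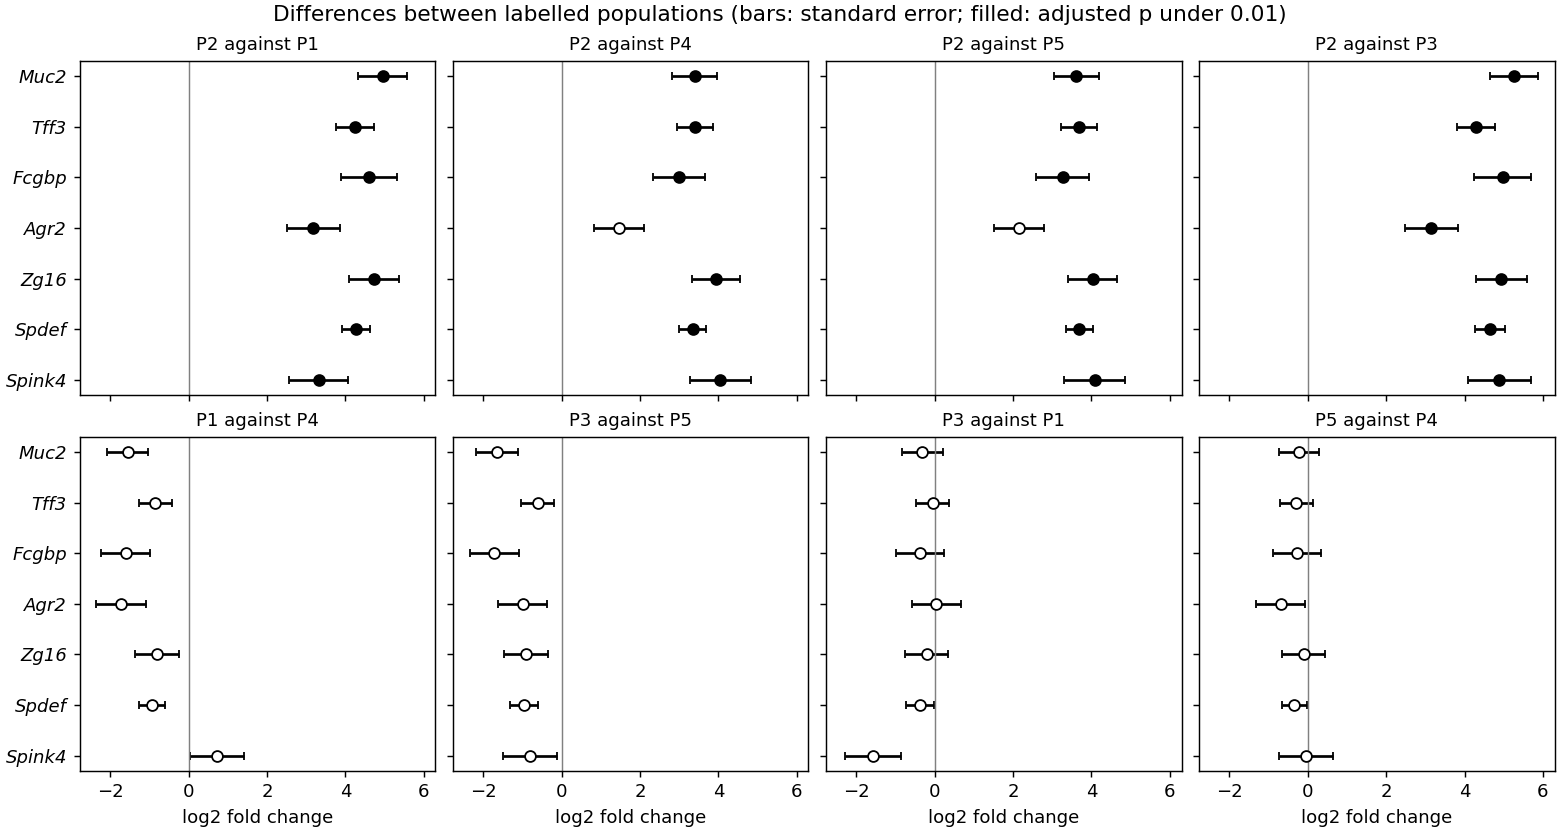
Log2 fold change with its standard error for 7 goblet cell genes in 8 comparisons of labelled populations, with filled points at an adjusted p under 0.01. The upper row holds the comparisons with P2, where Agr2 has the open points at 1.46 and 2.15, and no point in the lower row is filled.

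Among the other populations no goblet cell gene was called. Between P1 and P4, 23.5% of all genes were called and 0 of 7 goblet cell genes, with 4 of 7, against 7110 of all 13708 genes, at an unadjusted p under 0.05. The number over all genes also depended on single libraries, being 3219 with all of them and 0 without P4 replicate 1 or without P4 replicate 2. Muc2 had a log2 difference of -1.56 (standard error 0.53, adjusted p = 0.0414 from edgeR) and Agr2 one of -1.73 (standard error 0.64, adjusted p = 0.0553 from edgeR), and both libraries of P1 lay below both of P4 for 6 genes. Spink4 was the exception, at 0.73 (standard error 0.69), and at -0.46 without P1 replicate 2. DESeq2 called 2 of the 7, Muc2 and Fcgbp, and 4462 genes in all. It was run without the low-count filter that left 13708 genes for edgeR. With edgeR, Agr2 was called when P3 replicate 1, P3 replicate 2 or both were left out.

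Between P3 and P5, 0% of all genes were called by edgeR's quasi-likelihood test, 1587 had an unadjusted p under 0.05 and DESeq2 called 41. None of the 7 goblet cell genes was called by either tool, and 3 had an unadjusted p under 0.05. Muc2 had a log2 difference of -1.65 (standard error 0.53) and Fcgbp one of -1.71 (standard error 0.63), which became -2.47 and -2.29 without P3 replicate 2 and -1.16 and -1.33 without P3 replicate 1. Between P3 and P1, which by label share the OSCARlow gate, 15.6% of all genes were called and 0 of 7 goblet cell genes, with log2 differences from -1.57 for Spink4 to 0.04 for Agr2. The value for Spink4 lay between -2.88 and -0.40 with single libraries left out. Without P1 replicate 1 the number over all genes fell from 2140 to 0. Between P5 and P4, 0% of all genes were called, 351 had an unadjusted p under 0.05 and DESeq2 called 27, with none of the 7 goblet cell genes among them. All 7 differences were below 0, from -0.69 for Agr2 to -0.03 for Spink4. The difference of the last 2 contrasts compares the EF1a effect between OSCAR gates only if the label of P3 holds, and in it 0.817% of all genes (112, and 0 with any library left out) and 0 of 7 goblet cell genes were called. For Spink4 this value was -1.54 (standard error 0.98, adjusted p = 0.306 from edgeR), and between -2.84 and -0.37 with single libraries left out.

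The make-up of the group was compared per kilobase of exon, since longer transcripts give more reads. On that scale Zg16, Tff3 and Spink4 were the most abundant in each of the 10 libraries, and Spdef the least abundant of the 7 tested genes. Agr2 took 1.98% and 1.63% of the summed level in the libraries labelled P2, against 7.34% and 8.37% in P4 and 5.15% and 5.99% in P5. Its share was thus lower in both libraries labelled P2 than in the other 8, the nearest being 2.41% in P3 replicate 1. Zg16 took 35.1% and 47.6% in P2, and Spink4 took 20.6% and 43.7% in the 2 libraries of P1. These shares were not tested.

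**Figure D3:**
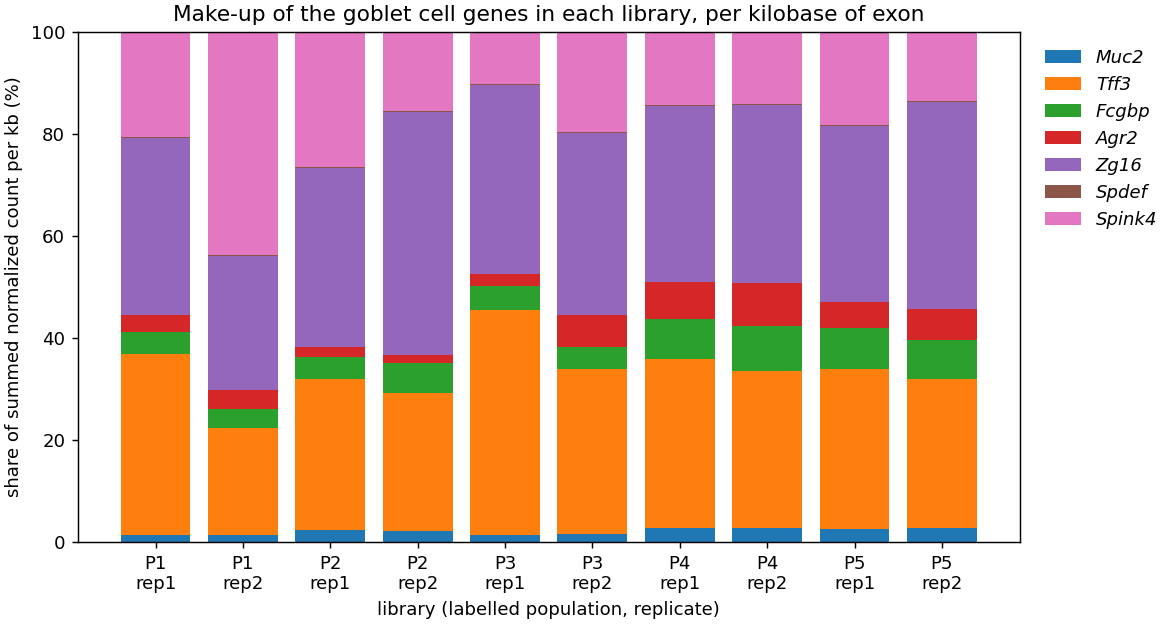
Share of the summed normalized count per kilobase of exon taken by each goblet cell gene, in percent, with 1 bar per library. Agr2 is at 1.98% and 1.63% in the libraries labelled P2 and at 7.34% and 8.37% in those of P4.

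Genes that work beside the goblet cell proteins were taken from 5 lists, whose counts stand against 8.02% of all genes that were higher and 864 of 13708 that were lower in the libraries labelled P2 than in P4. Of 12 tested genes for other mucus and secreted products, 7 were higher and 1 lower in the libraries labelled P2 than in P4, with a median log2 fold change of 2.47, against 0.05 over all genes. Clca3, the gene now named Clca1, which encodes a secreted mucus protein, rose by 3.42 (standard error 0.57, adjusted p = 0.00296 from edgeR). Ang4, an antimicrobial ribonuclease with close paralogs that make its counts uncertain, stood 9.36 higher (standard error 1.12). It was also higher in P1 than in P4 (log2 6.03, standard error 0.98, adjusted p = 0.00204 from edgeR). There 13 of 15 tested Paneth cell markers were higher and 0 of 7 goblet cell genes were called. The membrane mucin Muc4 was lower (log2 -1.77, standard error 0.39, adjusted p = 0.00928 from edgeR), and Lypd8, listed as 2210415F13Rik, was not called (0.62, standard error 0.43). Of 27 genes for mucin O-glycosylation, 14 were higher and 1 lower, with a median of 1.92. Galnt4 and Galnt7, which start O-glycan chains, had log2 fold changes of 1.61 and 1.92 and were called, Galnt6 was at 0.85 (adjusted p = 0.0352 from edgeR) and was not, and the branching enzyme Gcnt4 was lower by a log2 difference of -2.24.

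For folding in the endoplasmic reticulum, the setting in which Agr2 acts, 8 of 16 genes were higher and 0 lower, with a median of 1.55. Xbp1, a transcription factor of the unfolded protein response, was at 2.01 and the disulfide isomerase Txndc5 at 1.74, both called. The chaperone Hspa5 was at 0.79 (adjusted p = 0.0682 from edgeR). Of 10 transcription factors 5 were higher and 1 lower, with a median of 2.59. Klf4 was at 2.72 and called, while Elf3 at -0.25 and Gata4 at -0.97 were not called. The highest mean of Klf4 was in P1, at 3469 normalized counts against 1681 in P2 (log2 -1.06 for P2 against P1, not called). The Notch target Hes1 was lower in P2 than in P4, at -2.05 (standard error 0.31, adjusted p = 0.00192 from edgeR). Of 16 genes for granule exocytosis 12 were higher and 0 lower, with a median of 2.65. Rab3d, a small GTPase of secretory granules, was at 3.10 and Hepacam2 at 2.70, both called, and the actin-severing protein Scin was at 0.40 and was not.

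**Figure D4:**
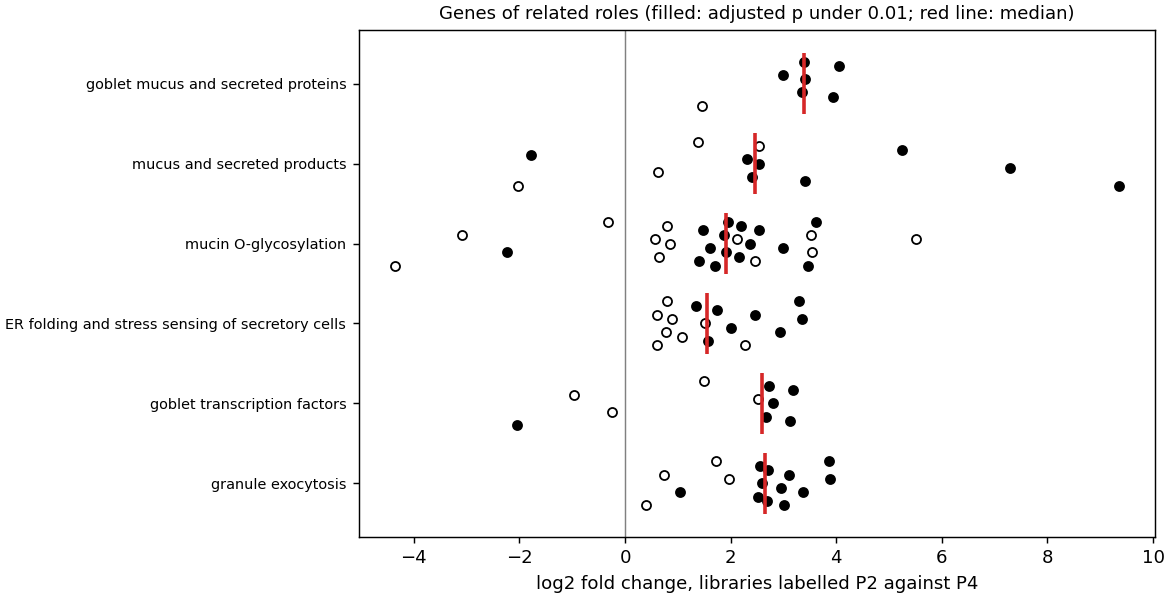
Log2 fold change between the libraries labelled P2 and P4 for the goblet cell genes and for genes of 5 related roles, with filled points at an adjusted p under 0.01 and a red line at each median. The medians run from 1.55 for folding in the endoplasmic reticulum to 3.39 for the goblet cell genes.

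Across the 10 libraries the goblet cell genes varied together, which is described here without a test because the 2 libraries labelled P2 lie far from the other 8. Pearson's r of log2 scaled counts was 0.994 between Muc2 and Fcgbp (Spearman's rho 0.988) and lowest, at 0.839, between Agr2 and Spink4 (rho 0.733). Over the 8 libraries not labelled P2, Muc2 and Fcgbp had r = 0.992, while Spink4 and Tff3 had r = 0.426. The gene most like the mean of the 7 was Atoh1 (r = 0.995, rho 0.988), which was at 0.981 over the 8 libraries. It was followed by Rcan3, Zdhhc14, Klk1, Clca3, Klf12, Spire1, Selm, Eid2 and Rab3d, with r from 0.991 to 0.986. By Spearman's rho 3 of these 10 were among the first 10.

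Markers of other secretory cell types were also highest in the libraries labelled P2, where the counts of genes higher than in P4 stand against 8.02% of all genes. The 17 genes of the Paneth list took 40.0% and 30.1% of counts in the libraries labelled P2, 2.05% and 6.31% in P1, 1.59% and 0.361% in P5, 0.115% and 0.150% in P4 and 0.216% and 0.200% in P3, and 13 of 15 tested were higher in P2 than in P4. In P2 against P1, 4 of 15 were higher, against 13.9% of all genes. Between P1 and P4 the Paneth list did not go with the goblet cell genes. There 13 of 15 were higher in P1, against 1925 of 13708 genes, and 0 of 7 goblet cell genes were called. With P4 replicate 1 or P4 replicate 2 left out no gene was called there, Paneth genes included. Lyz1 was the most abundant, and none of its defining markers (Lyz1, Mmp7 and Defa24) was at 0 in any library. The 15 enteroendocrine markers summed to 35133 and 85071 normalized counts in P2, and the highest other library had 4519. Gip was the most abundant, and 7 of 15 were higher than in P4. The 11 tuft markers summed to 4412 and 7189 in P2 and to at most 1422 elsewhere, with Trpm5 the most abundant and 4 of 9 tested higher. The goblet cell genes themselves took 3.52% and 8.05% of the libraries labelled P2 and between 0.0906% and 1.44% of the others.

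The stem cell list summed to 11873 and 7159 in P2 against 28949 and 41572 in P4, with Olfm4 the most abundant. Of this list 0 of 10 were higher than in P4 (8.02% of all genes) and 2 lower (864 of 13708 genes). In P1 it summed to 3969 and 5715, and 4 of 10 were higher in P2 than in P1 (13.9% of all genes) and 3 of 10 than in P3 (10.5% of all genes). The defining marker Lgr5 had 477 and 450 in P2, 58.5 and 55.1 in P1 and 535 and 638 in P4. The 12 enterocyte markers, led by Fabp2, summed to 14005 and 36093 in P2 and 359356 and 280563 in P1. The 10 immune cell markers, led by Cd74, summed to 541 and 662 in P2, 124 and 1067 in P4 and 6124 and 4308 in P1, with 1 higher in P2 than in P4. Of their defining markers Cd3e was at 0 in 6 libraries, both labelled P2 among them. Ptprc had 85.0 and 124 in P2 against 1.39 and 0.551 in P4, but 628 and 146 in P1 and 157 and 9.80 in P3. Epcam, the marker used for sorting, had between 3022 and 8380 normalized counts in the 10 libraries, and the epithelial list of 7 genes, led by Vil1, summed to 25355 and 36136 in P2. Mitochondrial genes took 59.2% and 36.1% of counts in the libraries labelled P3 and at most 5.19% in the others. Mean normalized counts of the 7 tested goblet cell genes were lowest in P3, though on the TMM scale Agr2 was lowest in P1. The part of these differences in the goblet cell results was not tested. With the Paneth list removed before scaling, 6 of 7 goblet cell genes were called between P2 and P4, and with mitochondrial genes removed also 6. Over all genes 1088 and 1026 were higher in P2 in these fits, against 1099 with all genes kept. Removing the listed genes leaves other RNA of Paneth cells in the libraries.

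**Figure D5:**
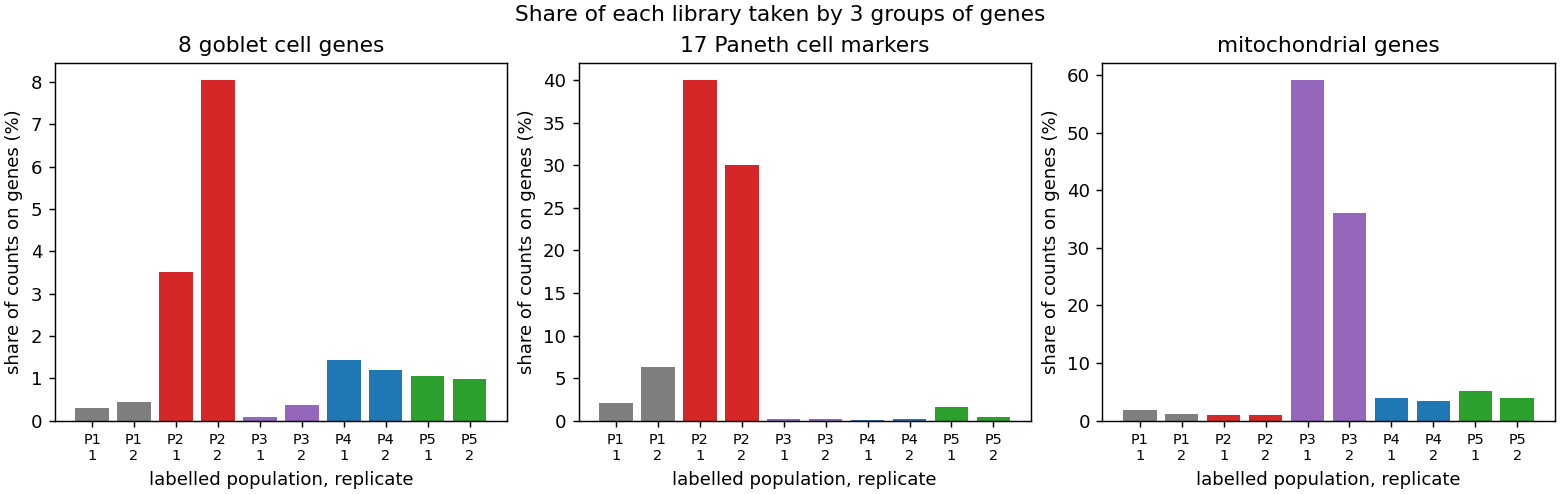
Share of counts on genes, in percent, taken by the 8 goblet cell genes, the 17 Paneth markers and the mitochondrial genes, with 1 bar per library and an axis from 0 in each panel. Goblet cell genes and Paneth markers are highest in the libraries labelled P2, at 3.52% and 8.05% and at 40.0% and 30.1%, and mitochondrial genes in those labelled P3, at 59.2% and 36.1%.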

How the data were processed

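The authors deposited counts of reads per gene, without normalization, for 10 libraries. Reads had been mapped to mm9 with TopHat2 2.1.0 and counted on exons with HTSeq 0.11.2, without strand. Rows that name no gene, with 18.7% to 44.3% of the summed values, and 183 rRNA gene names were left out. Genes passing filterByExpr, 13708 of 35006, were scaled with TMM and fitted as 5 population means with edgeR 4.0.16 in R 4.3.3, using its quasi-likelihood method, with p-values adjusted over all genes by Benjamini-Hochberg and a threshold of 0.01. Standard errors came from the F statistics. Levels are counts divided by size factors of DESeq2 1.42.0, also the alternative test. Exon lengths and overlaps came from GENCODE for NCBIM37, which held 33643 row names. Python 3.11.15 made tables and figures.

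The goblet cell genes and the lists were chosen with earlier results of these data known. Other genes were named by rule: the 3 most abundant of each role list with those called against its majority between P2 and P4, the 10 most like the goblet cell genes, and the most abundant and defining genes of each marker list. Fam3d was not matched to a row. Alternatives covered scaling, filter, test, threshold, replicate block, rRNA, mitochondrial and Paneth genes, the libraries in the model and each library left out.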

Additional observations from a re-analysis of the deposited data

How the results depend on the processing

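Of 1295 refitted log2 fold changes of the 7 tested goblet cell genes, 1177 kept their direction and their side of the threshold, 61 lost the call, 20 gained it and 37 changed sign, each of these 37 for a difference that was not called. In each of the 4 comparisons with P2, some fits with a single library left out called fewer goblet cell genes. Those fits also called fewer of all genes, and in them a lone library is assumed to vary like the other populations. With only the populations compared in the model the number of goblet cell genes called was 5 in each of these comparisons, against 7, 6, 6 and 7. The calls of Fcgbp and Agr2 against P3 were lost. Over all genes the number went from 3985 to 3747 (P1), 1963 to 2679 (P4), 2175 to 2439 (P5) and 2884 to 1095 (P3). In P1 against P4 the number of goblet cell genes called rose from 0 to 4 without a low-count filter, 2 with DESeq2 and 2 at 0.05. It was 1 with only the populations compared and 1 without both libraries labelled P3, an alternative chosen after seeing the data. Over all genes it rose from 3219 to 5024 (of 21998 tested without the filter), 4462, 5775, 3578 and 4439 in the same order. Without the filter the number of goblet cell genes called was 2 in P3 against P5 and 1 in P3 against P1. Over all genes it was 303 and 4005, against 0 and 2140 with the filter. That unfiltered fit gave an infinite prior degrees of freedom, against 4.21 with the filter, so it did not use each gene's own spread. With edgeR's newer dispersion method, chosen after seeing this, the prior was 5.69 without the filter. In those 3 comparisons 0 goblet cell genes were then called. Over all genes the number was 3303 (P1 against P4), 0 (P3 against P5) and 2179 (P3 against P1).

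With the replicate number as a replicate block the numbers were 7, 5, 6 and 7 in the 4 comparisons with P2 and 0 elsewhere. Fcgbp lost its call against P4 there (log2 2.87, adjusted p = 0.0102 from edgeR). Over all genes the numbers in these 4 comparisons were 4519, 2391, 2604 and 3234, against 3985, 1963, 2175 and 2884 without the block. Same-numbered libraries deviated together with correlations from -0.0597 to 0.554 (median 0.255), no source says that a number marks a shared animal, and the block result is given only here.

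Sign changes between P3 and P1 were 0.0252 for Tff3 without mitochondrial genes and, for Agr2, -0.0051 with DESeq2 size factors, -0.0010 without the filter, -0.0128 in DESeq2 and -0.1144 with the replicate block. Without mitochondrial genes the difference of the EF1a contrasts was 0.0343 for Muc2, 0.0115 for Fcgbp, 0.0201 for Zg16 and 0.0859 for Spdef. With each library left out in turn, the log2 difference between P1 and P4 was -0.4592 to 1.366 for Spink4. Between P3 and P1 it was -1.099 to 0.213 for Muc2, -0.355 to 0.2362 for Tff3, -0.9123 to 0.0472 for Fcgbp, -1.624 to 0.7944 for Agr2, -0.7618 to 0.2283 for Zg16 and -0.7716 to 0.1742 for Spdef. Between P5 and P4 it was -0.2702 to 0.1137 for Zg16 and -0.395 to 0.2638 for Spink4. For the difference of the EF1a contrasts it was -0.8723 to 0.4405 for Muc2, -0.0591 to 0.5323 for Tff3, -0.6441 to 0.3155 for Fcgbp, -0.9241 to 1.495 for Agr2, -0.6594 to 0.3308 for Zg16 and -0.4286 to 0.5242 for Spdef. The cause was not tested.

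DESeq2 called more genes than edgeR: 3125 against 1963 (P2 against P4), 3331 against 2175 (P2 against P5), 3518 against 2140 (P3 against P1), 41 against 0 (P3 against P5), 27 against 0 (P5 against P4) and 2004 against 112 (difference of the EF1a contrasts). DESeq2 was run without the low-count filter used for edgeR, so these numbers come from different sets of genes. Of the goblet cell genes Retnlb alone, with at most 9 counts in a library, had too few counts to be tested.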
